A study of Mus musculus with 19 samples.

Results

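The genes described here are 8 C-type lectin receptor genes of the Mincle and Dectin families: Clec4e, Clec4d, Clec4n, Clec7a, Clec12a, Clec4a1, Clec4a2 and Clec4a3. They were chosen by name, matched by mouse symbol, and are 8 of the 33919 gene identifiers in the deposited table. All 8 passed the filter on low values. The RNA was that of Kupffer cells, which are liver macrophages, sorted after collagenase D digestion of livers of female wild-type C57BL/6 mice. Chow_EmKCs (n = 6) were embryo-derived cells from chow-fed mice. MCD_EmKCs (n = 6) were embryo-derived and MCD_MoKCs (n = 7) monocyte-derived Kupffer cells of mice fed the MCD diet for 4 weeks. MCD stands for methionine- and choline-deficient, a diet that causes fatty liver inflammation in mice. Both subsets were gated as CLEC2+, with TIMD4+ cells taken as EmKCs and TIMD4- cells as MoKCs, so origin was assigned by surface phenotype and not by tracing. Neither the age of the mice nor any pooling is given in the sources used here. The sources do not tie libraries to animals. The p-values therefore rest on the spread between libraries alone, which may be technical.

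C-type lectin receptors are surface proteins through which myeloid cells sense sugars and lipids of microbes and of damaged cells. Mincle (Clec4e), MCL (Clec4d) and Dectin-2 (Clec4n) signal through the adaptor chain FcR gamma (Fcer1g), and Dectin-1 (Clec7a) carries its own signalling motif. All of them engage the kinase Syk, and CARD9, BCL10 and MALT1 then carry the signal to NF-kB. Clec12a (MICL) and Clec4a2 (DCIR) carry inhibitory motifs that recruit phosphatases such as SHP-1, the product of Ptpn6. Clec4a1 and Clec4a3 are close relatives of Clec4a2 in the mouse.

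The libraries held 11642240 to 30983487 reads assigned to genes. Values below are normalised reads, that is, reads per gene divided by 1 scaling factor per library. A Kupffer cell list of 14 markers took 2.60 to 3.35% of reads in Chow_EmKCs, 1.92 to 2.65% in MCD_EmKCs and 0.621 to 0.948% in MCD_MoKCs, with none of its genes at 0 in any group. It includes Timd4 and Clec1b, the genes of the sort markers. A list of 7 general macrophage genes took 1.03 to 2.02% in every library. In MCD_MoKCs, libraries 1 to 3 stood apart from 4 to 7. They had fewer reads (11642240 to 16750655 against 19215122 to 30983487) and a higher mitochondrial share (0.534 to 0.729% against 0.244 to 0.359%). They also had a higher share on 83 ribosomal protein genes (0.634 to 0.813% against 0.314 to 0.387%). These libraries carry low library numbers (up to 24), as do Chow_EmKCs 1 and 2, and no MCD_EmKCs library does. Chow_EmKCs 1 and 2 had 18707096 to 27401870 reads, against 15190337 to 19760597 in the other Chow_EmKCs libraries. Their mitochondrial share was 0.511 to 0.651% (against 0.557 to 1.05%) and their ribosomal share 0.393 to 0.477% (against 0.222 to 0.432%). Calls of the receptor genes, and counts of calls in the pathway and lectin lists, are given both ways where they differ without the 5 libraries numbered up to 24. Between groups, the mitochondrial share was 0.511 to 1.05% in Chow_EmKCs and 0.155 to 0.317% in MCD_EmKCs, which did not overlap, and 0.244 to 0.729% in MCD_MoKCs. The ribosomal share averaged 0.345% (0.222 to 0.477%), 0.277% (0.201 to 0.369%) and 0.522% (0.314 to 0.813%) in the same order. The part of either share in the calls below was not tested.

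Of the 8 receptor genes, 2 were higher and 0 lower in MCD_EmKCs than in Chow_EmKCs, 6 were higher and 0 lower in MCD_MoKCs than in MCD_EmKCs, and 5 were higher and 0 lower in MCD_MoKCs than in Chow_EmKCs. At an unadjusted p under 0.05 these counts were 4, 6 and 5 higher and 0 lower, and edgeR and DESeq2 also called 0 lower. The test was limma on log2(value + 1) over 14875 genes, with a threshold of 0.05 on the adjusted p. The diet called 4.08% of all genes tested, 2.5% higher and 1.58% lower. Monocyte-derived against embryo-derived cells on the diet called 10.5%, 5.64% higher and 4.9% lower. MCD_MoKCs against Chow_EmKCs called 16.8%, 8.68% higher and 8.08% lower. In the diet comparison 372 genes were higher and 235 lower, and with libraries scaled by their totals these were 248 and 282. The median log2 fold change of the 8 genes was 0.22, 0.89 and 0.75 in these 3 comparisons, beside -0.04, 0.02 and -0.01 over all genes tested. The comparisons share groups, so their values stand side by side and are not independent. These are bulk samples, in which fewer expressing cells and less RNA per cell cannot be told apart.

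**Figure D1:**
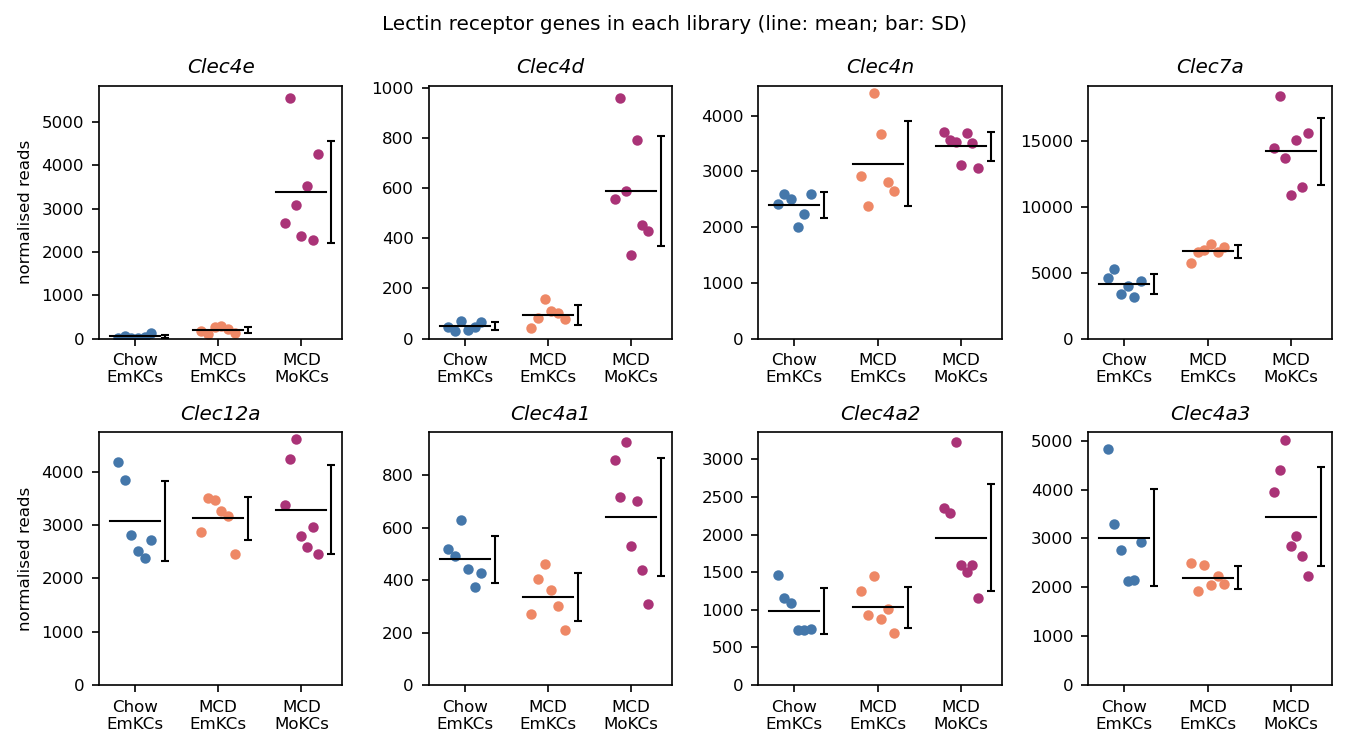
Normalised reads of each receptor gene (vertical axis, from 0) in every library of the 3 groups. Points are libraries, horizontal lines are means and the bars beside them are SD (n = 6, 6 and 7). Clec4e, Clec4d and Clec7a lie higher in every MCD_MoKCs library than in any other library, while the Clec12a groups overlap.

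Clec4e encodes Mincle, a receptor for mycobacterial glycolipids and for SAP130 and glucosylceramide released by dying cells. It lies on the minus strand of chromosome 6, 123281789 to 123289870 (mm10, ENSMUSG00000030142, protein coding). Its lowest, median and highest values were 12.9, 28.6 and 128 normalised reads in Chow_EmKCs. They were 104, 196 and 284 in MCD_EmKCs, and 2266, 3078 and 5552 in MCD_MoKCs. Every MCD_MoKCs library lay above every library of the other groups, while Chow_EmKCs 6, at 128, overlapped the MCD_EmKCs range. The means were 47.2 ± 45.3 (SD, n = 6), 197 ± 70.6 (n = 6) and 3384 ± 1183 (n = 7). The mean in MCD_EmKCs was 4.17 times that in Chow_EmKCs, and the mean in MCD_MoKCs was 17.2 times that in MCD_EmKCs and 71.8 times that in Chow_EmKCs.

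On the log2(value + 1) scale, Clec4e rose with the diet in embryo-derived cells by 2.46 (SE 0.44, limma adjusted p = 0.000862). It was higher in MCD_MoKCs than in MCD_EmKCs by 4.11 (SE 0.42, limma adjusted p = 1.05e-07) and than in Chow_EmKCs by 6.57 (SE 0.42, limma adjusted p = 5.81e-12). In the last comparison it ranked 56th among all genes tested by fold change. The chow level was low and uneven, with a coefficient of variation of 96.0% against 35.9% in MCD_EmKCs and 35.0% in MCD_MoKCs. The lowest chow library had 12 reads. Within the libraries numbered from 37, with 3 against 3, the diet difference was 2.13 (limma adjusted p = 0.0996).

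Genes of other cells were read beside Clec4e. In MCD_EmKCs the mean of Clec4e was 5.82% of its mean in MCD_MoKCs, with libraries from 3.07 to 8.38%. The monocyte chemokine receptor Ccr2 was at 6.67% (0 to 13.6%), the fractalkine receptor Cx3cr1 at 0.804% (0.046 to 1.62%) and Cd93 at 0.762% (0 to 2.33%). Cx3cr1 and Cd93 are not on the monocyte list and were chosen after their values were seen. Of the listed genes, Chil3 was at 6.06% (0 to 20.2%), F13a1 averaged 20.5 normalised reads in MCD_EmKCs against 141 in MCD_MoKCs, and Spn 4.99 against 76.6. Ly6c2, the monocyte surface antigen, was at 0 in all MCD_EmKCs. The 10 monocyte markers together took 0.0446 to 0.0606% of reads in Chow_EmKCs, 0.0333 to 0.0448% in MCD_EmKCs and 0.0354 to 0.0541% in MCD_MoKCs. Most of this sum came from Treml4 and Plac8, which averaged 6918 and 2166 normalised reads in Chow_EmKCs against 5419 and 823 in MCD_MoKCs. Of the 9 monocyte markers tested, 6 were higher and 0 lower in MCD_MoKCs than in MCD_EmKCs. Mincle is also made by neutrophils. The 12 neutrophil markers took 0.00999 to 0.0179%, 0.00884 to 0.0154% and 0.00848 to 0.0267% in the same order, with Mpo at 0 in every library and Ly6g at 0 to 13.8 normalised reads in MCD_MoKCs. Most of that sum came from Csf3r, which averaged 2523, 2174 and 1948 normalised reads. Of the 5 neutrophil markers tested, 1 was higher and 0 lower in MCD_MoKCs than in MCD_EmKCs, and 4 were higher and 0 lower in MCD_MoKCs than in Chow_EmKCs, with a median log2 difference of 4.13. S100a8 averaged 21.4, 63.2 and 288 normalised reads in the 3 groups and S100a9 19.8, 30.9 and 281. S100a8 was highest in MCD_MoKCs 2, at 1035 normalised reads, which also had the highest Clec4e. Without that library Clec4e was higher in MCD_MoKCs than in MCD_EmKCs by 3.98 (limma adjusted p = 5.96e-07). Against Chow_EmKCs it was 6.44 without that library (limma adjusted p = 5.31e-11). Marker lists of other liver and blood cells moved between the groups too. Of 8 hepatocyte markers, 6 were lower with the diet and 8 were lower in MCD_MoKCs than in Chow_EmKCs. Between MCD_MoKCs and MCD_EmKCs, 4 of 8 lymphocyte markers were higher and 0 lower, and of 8 endothelial markers 4 were higher and 2 lower. Of 3 platelet markers tested, 2 were higher with the diet. The part of other cells in the differences of Clec4e was not tested.

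Clec4d encodes MCL, which pairs with Mincle and helps to bring it to the cell surface. It lies next to Clec4e on the plus strand of chromosome 6, 123262111 to 123275265 (ENSMUSG00000030144, protein coding), with 6.52 kb between the genes. Its lowest, median and highest values were 28.6, 46.7 and 68.4 normalised reads in Chow_EmKCs, 40.1, 92.4 and 157 in MCD_EmKCs, and 332, 557 and 960 in MCD_MoKCs. Every MCD_MoKCs library again lay above all 12 others, and the Chow_EmKCs and MCD_EmKCs ranges overlapped. The means were 48.2 ± 15.8 (SD, n = 6), 94.5 ± 38.9 (n = 6) and 587 ± 220.0 (n = 7). MCD_MoKCs exceeded MCD_EmKCs by 2.65 on the log2 scale (SE 0.36, limma adjusted p = 9.37e-06) and Chow_EmKCs by 3.56 (SE 0.36, limma adjusted p = 4.69e-08). The diet difference was 0.91 (SE 0.38, limma adjusted p = 0.214; 95% interval 0.13 to 1.69). It did not pass the test. Whether the diet difference of Clec4d was smaller than that of Clec4e was not tested.

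Clec4n encodes Dectin-2, a receptor for fungal mannans. It lies on the plus strand of chromosome 6, 123229843 to 123247021 (ENSMUSG00000023349, protein coding). Its lowest, median and highest values were 2008, 2458 and 2601 normalised reads in Chow_EmKCs, 2373, 2858 and 4410 in MCD_EmKCs, and 3059, 3526 and 3698 in MCD_MoKCs. The MCD_EmKCs range spanned values of both other groups, whose own ranges did not overlap. Clec4n was higher in MCD_MoKCs than in Chow_EmKCs by 0.53 on the log2 scale (SE 0.14, limma adjusted p = 0.00818). The differences of 0.36 with the diet (SE 0.15, limma adjusted p = 0.194) and of 0.17 between MCD_MoKCs and MCD_EmKCs (SE 0.14, limma adjusted p = 0.521) did not pass. Without the 5 libraries numbered up to 24, the difference between MCD_MoKCs and Chow_EmKCs was 0.52 (limma adjusted p = 0.0915).

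Clec7a encodes Dectin-1, the receptor for fungal beta-glucans. It lies on the minus strand of chromosome 6, 129461591 to 129472779 (ENSMUSG00000079293), and the annotation classes it as a polymorphic pseudogene. It had more reads than any of the other 7 genes in each group. Its lowest, median and highest values were 3166, 4209 and 5269 normalised reads in Chow_EmKCs, 5749, 6659 and 7223 in MCD_EmKCs, and 10931, 14498 and 18445 in MCD_MoKCs. The 3 groups did not overlap in any pair. The means were 4147 ± 785 (SD, n = 6), 6636 ± 502 (n = 6) and 14260.0 ± 2549 (n = 7). Clec7a rose with the diet by 0.70 on the log2 scale (SE 0.14, limma adjusted p = 0.00327). MCD_MoKCs exceeded MCD_EmKCs by 1.09 (SE 0.14, limma adjusted p = 2.49e-06) and Chow_EmKCs by 1.78 (SE 0.14, limma adjusted p = 2.12e-10). The diet difference was 0.58 after quantile normalisation (limma adjusted p = 0.0528) and 0.54 within the libraries numbered up to 33, with 3 against 3 (limma adjusted p = 0.264).

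The groups were also compared by whether their libraries overlapped. With the diet, Clec7a alone of the 8 was higher in every library, a state found in 1.55% of genes tested, with 1.41% lower in every library. Between MCD_MoKCs and MCD_EmKCs these were Clec4e, Clec4d and Clec7a (2.62% of genes higher, 2.25% lower). Between MCD_MoKCs and Chow_EmKCs they were Clec4e, Clec4d, Clec4n and Clec7a (4.48% higher, 3.5% lower).

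Clec12a encodes MICL, an inhibitory receptor for uric acid crystals. It lies on the plus strand of chromosome 6, 129342691 to 129365303 (ENSMUSG00000053063, protein coding), in the same cluster as Clec7a. Its lowest, median and highest values were 2386, 2763 and 4188 normalised reads in Chow_EmKCs, 2451, 3211 and 3511 in MCD_EmKCs, and 2450.0, 2967 and 4617 in MCD_MoKCs. All 3 ranges overlapped. The log2 differences did not pass the test in any comparison. They were 0.04 with the diet (95% interval -0.32 to 0.41, limma adjusted p = 0.938), 0.05 between MCD_MoKCs and MCD_EmKCs (-0.30 to 0.40, limma adjusted p = 0.909) and 0.09 between MCD_MoKCs and Chow_EmKCs (-0.26 to 0.44, limma adjusted p = 0.787).

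Clec4a2 encodes DCIR, an inhibitory receptor of myeloid cells. It lies on the plus strand of chromosome 6, 123106428 to 123143999 (ENSMUSG00000030148, protein coding). Its lowest, median and highest values were 728, 917 and 1459.5 normalised reads in Chow_EmKCs, 686, 974 and 1451 in MCD_EmKCs, and 1155, 1603 and 3231 in MCD_MoKCs. The MCD_MoKCs range began within those of the other groups and reached beyond them. MCD_MoKCs exceeded MCD_EmKCs by 0.89 on the log2 scale (SE 0.23, limma adjusted p = 0.0124) and Chow_EmKCs by 0.97 (SE 0.23, limma adjusted p = 0.0036). The diet difference was 0.08 (SE 0.24, limma adjusted p = 0.914). Of the stretches of 50 bases in its annotated transcripts, 6.69% also occur in other genes, Clec4a4 and Clec4b1 among them. The position of Clec4a2 overlaps that of 1 other annotated gene. How reads that map to several places were counted is not given in the sources used here, so its level is less certain than that of the others, where the share was 0 to 0.686%.

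Clec4a1 lies on the plus strand of chromosome 6, 122921848 to 122934619 (ENSMUSG00000049037), and Clec4a3 follows at 122952515 to 122969875 (ENSMUSG00000043832), both protein coding. Clec4a1 had lowest, median and highest values of 373, 467 and 629 normalised reads in Chow_EmKCs, 211, 332 and 463 in MCD_EmKCs, and 310.0, 701 and 927 in MCD_MoKCs. For Clec4a3 they were 2126, 2845 and 4820 (Chow_EmKCs 1), 1914, 2151 and 2486, and 2241, 3042 and 5011 in the same order. For both genes every pair of groups overlapped. MCD_MoKCs exceeded MCD_EmKCs by 0.89 for Clec4a1 (SE 0.26, limma adjusted p = 0.0255) and by 0.60 for Clec4a3 (SE 0.19, limma adjusted p = 0.0448). Against Chow_EmKCs the differences were 0.35 (limma adjusted p = 0.419) and 0.20 (limma adjusted p = 0.562), and the diet differences were -0.54 (limma adjusted p = 0.32) and -0.40 (limma adjusted p = 0.323). None of these 4 passed.

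The calls of the 3 Clec4a genes between MCD_MoKCs and MCD_EmKCs changed with the libraries used. Without the 5 libraries numbered up to 24 the differences were 0.54 for Clec4a1 (limma adjusted p = 0.368), 0.53 for Clec4a2 (limma adjusted p = 0.205) and 0.29 for Clec4a3 (limma adjusted p = 0.38). Then 3 of the 8 receptor genes passed, Clec4e, Clec4d and Clec7a. Leaving out any 1 of MCD_EmKCs 1 or 6 or MCD_MoKCs 1, 2 or 3 also ended the call of Clec4a1, with values of 0.77 to 0.85 and limma adjusted p of 0.0518 to 0.0719. The call of Clec4a3 ended without any 1 of MCD_EmKCs 2, 4, 5 or 6 or MCD_MoKCs 1, 2, 3 or 5 (0.50 to 0.62, limma adjusted p 0.0551 to 0.108). It was also lost in edgeR's quasi-likelihood test on the recovered reads (0.63, adjusted p = 0.0554). Dendritic cells carry Clec4a genes and Clec12a as well. Their 10 markers took 0.00213 to 0.00686% of reads in Chow_EmKCs, 0.00203 to 0.00712% in MCD_EmKCs and 0.00581 to 0.0140% in MCD_MoKCs, with none at 0 in a whole group, and 3 of 8 tested were higher and 0 lower in MCD_MoKCs than in MCD_EmKCs. Their part in these differences was not tested.

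**Figure D2:**
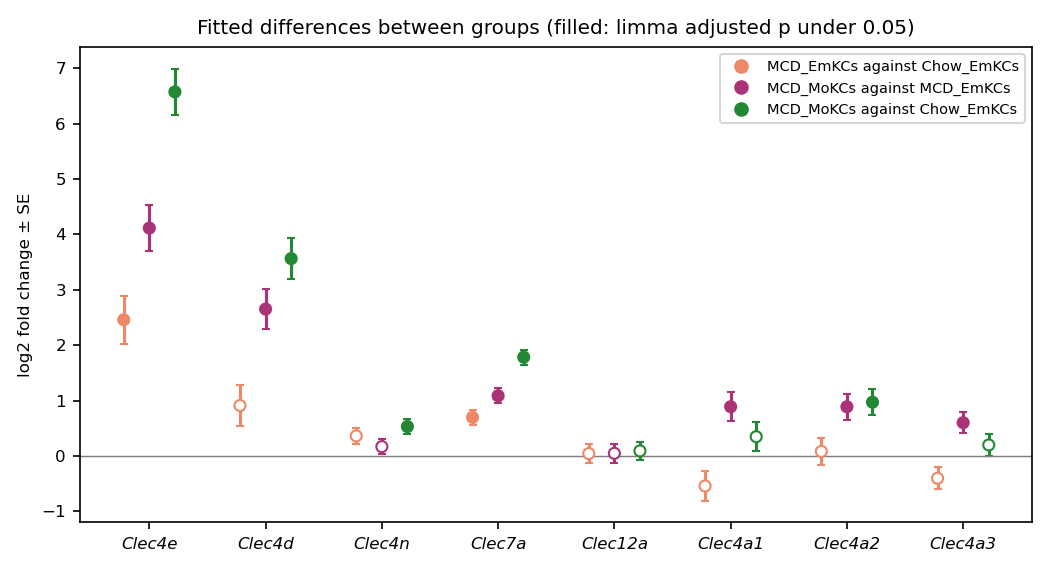
Log2 fold change ± SE of each receptor gene (vertical axis) in the 3 comparisons, from the limma fit over all 19 libraries. Filled points passed an adjusted p of 0.05; Clec4e reaches 6.57 in MCD_MoKCs against Chow_EmKCs, and the 3 Clec12a points lie between 0.04 and 0.09.

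The spread within groups was described as well. Each library's deviation from its group mean was compared between genes over the 19 libraries, which share their library preparation and scaling, so these correlations are descriptions. Deviations of Clec12a, Clec4a1, Clec4a2 and Clec4a3 went together, with Pearson's r from 0.61 (Clec4a1 and Clec4a3) to 0.88 (Clec4a2 and Clec4a3). They also went with the share of reads on ribosomal protein genes, with r of 0.83 for Clec12a, 0.74 for Clec4a1, 0.80 for Clec4a2 and 0.82 for Clec4a3. For Clec4e that r was -0.03, and for Clec7a, Clec4n and Clec4d it was 0.40, 0.44 and 0.52. Over group means and deviations together, Clec4e, Clec4d and Clec7a had r of 0.93 to 0.96 with each other, and within groups 0.24 to 0.43. The part of the ribosomal share in the differences of the Clec4a genes was not tested.

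**Figure D3:**
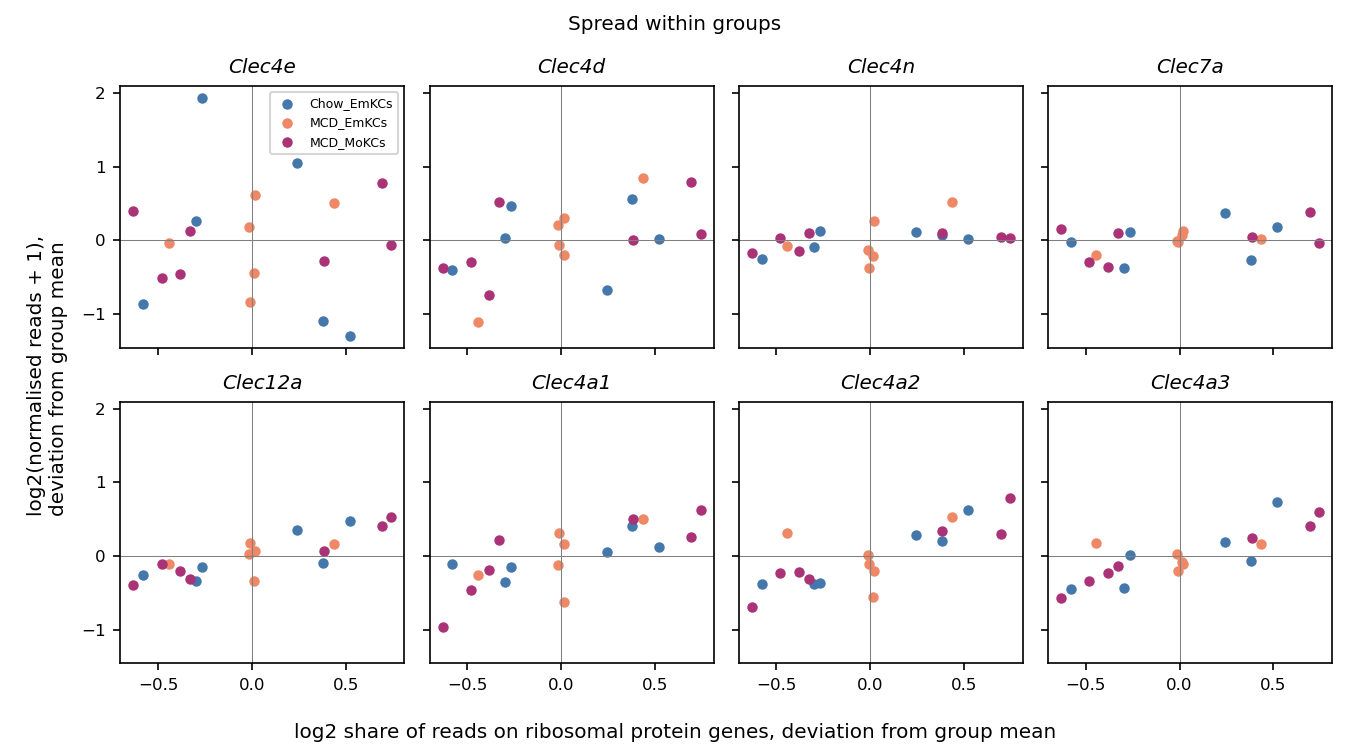
Deviation of each receptor gene from its group mean (vertical axis, log2) against the deviation of the log2 share of reads on 83 ribosomal protein genes (horizontal axis), 1 point per library and 1 colour per group. The lower 4 panels slope upward (r of 0.74 to 0.83), and the Clec4e panel does not (r of -0.03).

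By the measure of likeness used here (Pearson's r of log2 values over 19 libraries), and with the 8 receptor genes and predicted genes left out of the ranking, the genes nearest to Clec4e were Alas1 (0.97), Ccl9 (0.96) and Slamf7 (0.96). Nearest to Clec4d were Fabp5 (0.97), Arhgap22 (0.95) and Osm (0.95), and nearest to Clec7a were Slamf7 (0.98), Srxn1 (0.97) and Ccrl2 (0.97). Clec4n was most like Cxcl3 (0.83), Ctsz (0.83) and Id2 (0.82). Clec12a was most like Rgs2 (0.83), Eef1b2 (0.82) and Nme2 (0.81). Ribosomal protein genes or a pseudogene of one led for Clec4a1 (Rpl39, 0.91; Rpl31-ps8, 0.87; Rpl34, 0.87), and also for Clec4a2 (Rpl8, 0.94; Tuba1c, 0.92; Rps19, 0.92) and Clec4a3 (Rpl7, 0.93; Mir682, 0.91; Rpl22, 0.91). Among the 8, Clec4e and Clec7a were each other's nearest gene (0.96), as were Clec4a2 and Clec4a3 (0.79). Clec7a was nearest to Clec4d (0.93), Clec4e to Clec4n (0.76), and Clec4a3 to both Clec12a (0.70) and Clec4a1 (0.76).

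Levels were compared between genes per kilobase of annotated exon, where all annotated transcripts of a gene were joined. In Chow_EmKCs the order was Clec4a3 (2270.4 ± 750.1 normalised reads per kb, SD, n = 6), Clec4n (1685 ± 162), Clec7a (1572 ± 298), Clec12a (557 ± 136), Clec4a2 (337 ± 103), Clec4a1 (308 ± 57.1), Clec4d (30.1 ± 9.86) and Clec4e (9.50 ± 9.12). Neighbours in this order overlapped in range except Clec7a with Clec12a and Clec4a1 with Clec4d. In MCD_EmKCs Clec7a led (2515 ± 190.2), ahead of Clec4n (2207 ± 535) and Clec4a3 (1657 ± 176), and the rest kept their order down to Clec4e (39.6 ± 14.2). There Clec4a3 with Clec12a and Clec4a1 with Clec4d were the neighbours without overlap.

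In MCD_MoKCs the order was Clec7a (5406 ± 966, n = 7), Clec4a3 (2597 ± 769), Clec4n (2431 ± 184), Clec4e (682 ± 238), Clec4a2 (670.2 ± 241), Clec12a (595 ± 152), Clec4a1 (411 ± 144) and Clec4d (367 ± 138). Clec7a stood clear of Clec4a3 and Clec4n clear of Clec4e, and the other neighbours overlapped. By mean per kb, Clec4e stood at rank 8 of 8 in both embryo-derived groups and at rank 4 of 8 in MCD_MoKCs. The summed level of the 8 genes was 6768 ± 1285 normalised reads per kb in Chow_EmKCs, 7611 ± 835 in MCD_EmKCs and 13158 ± 2189 in MCD_MoKCs.

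As a share of that sum, Clec7a made up 23.4 ± 3.07% in Chow_EmKCs, 33.3 ± 3.74% in MCD_EmKCs and 41.2 ± 4.59% in MCD_MoKCs. Clec4a3 made up 32.9 ± 4.54%, 21.9 ± 2.35% and 19.5 ± 3.46%, and Clec4e 0.142 ± 0.132%, 0.511 ± 0.144% and 5.14 ± 1.35%. The ratio of Clec4e to Clec4d per kb was 0.337 ± 0.304, 0.748 ± 0.376 and 1.95 ± 0.624. Every MCD_MoKCs library had more Clec4e than Clec4d on this scale, with ratios of 1.43 to 3.21. Every Chow_EmKCs library had less, with ratios of 0.070 to 0.784. This ratio depends on the joined exon lengths, 4965 bases for Clec4e and 1599 for Clec4d. Without division by length, Clec4e and Clec4d averaged 47.2 and 48.2 normalised reads in Chow_EmKCs and 197 and 94.5 in MCD_EmKCs.

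**Figure D4:**
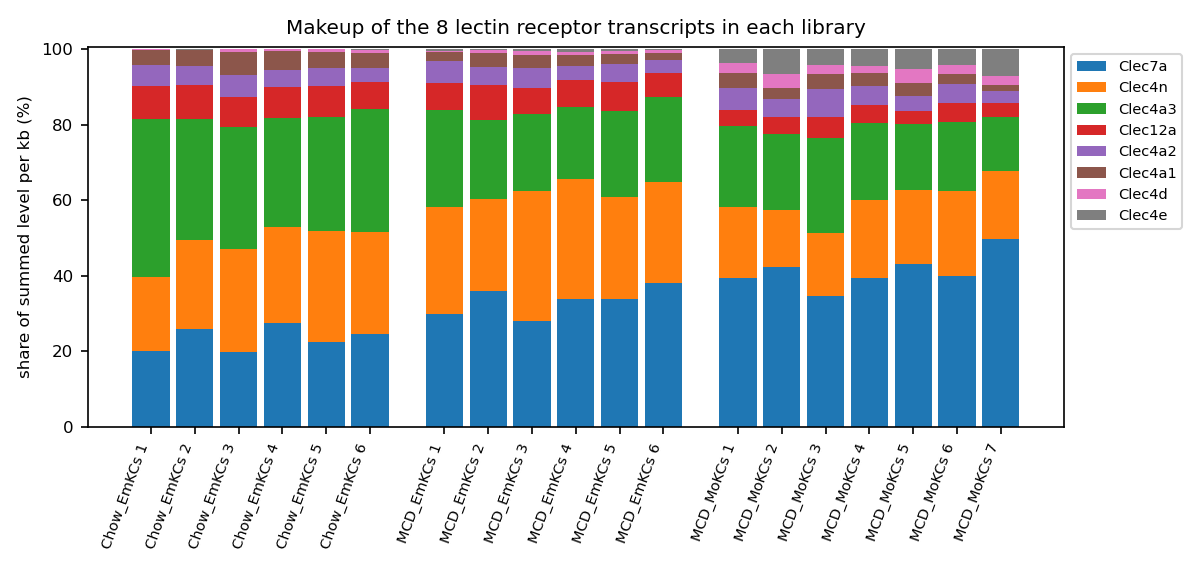
Share of each receptor gene in the summed level per kb of all 8 (vertical axis, percent, stacked from 0), 1 bar per library. The Clec7a part grows from 23.4% on average in Chow_EmKCs to 41.2% in MCD_MoKCs, and the Clec4e part is visible only in MCD_MoKCs, where it averages 5.14%.

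The promoter windows of genes that moved together and of one that did not are shown to let their letters be compared. The RefSeq promoter table (GRCm38.p6) matched 7 of the 8 genes, all but Clec4n. Each window holds the 250 bases before the RefSeq start and 50 from it on, 5′ to 3′ on the gene's strand. Clec4e is chr6:123289822-123290121 (minus), Clec4d chr6:123261857-123262156 (plus), Clec7a chr6:129472730-129473029 (minus) and Clec12a chr6:129349994-129350293 (plus). Capitals mark matches on either strand to GAGGAA (a PU.1 core), TTGCNNAA (C/EBP) or TGANTCA (a loose AP-1 pattern). TGANTCA leaves its middle base open, where the AP-1 consensus has C or G, and the match in Clec12a has A there. A loose NF-kB pattern of 10 bases was searched too. It fixes only its outer bases and leaves all the middle ones open, so it is not the full NF-kB consensus.
Clec4e: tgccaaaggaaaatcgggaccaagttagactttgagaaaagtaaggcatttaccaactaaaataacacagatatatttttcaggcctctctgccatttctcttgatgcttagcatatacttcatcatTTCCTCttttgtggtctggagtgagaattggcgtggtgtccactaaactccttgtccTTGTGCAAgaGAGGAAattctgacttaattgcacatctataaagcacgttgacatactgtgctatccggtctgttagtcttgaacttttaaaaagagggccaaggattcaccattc
Clec4d: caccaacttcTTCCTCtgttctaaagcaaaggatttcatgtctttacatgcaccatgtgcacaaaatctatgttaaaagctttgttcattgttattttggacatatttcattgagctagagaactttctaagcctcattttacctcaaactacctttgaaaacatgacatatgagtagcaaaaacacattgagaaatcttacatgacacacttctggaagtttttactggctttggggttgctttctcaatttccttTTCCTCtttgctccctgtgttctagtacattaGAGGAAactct
Clec7a: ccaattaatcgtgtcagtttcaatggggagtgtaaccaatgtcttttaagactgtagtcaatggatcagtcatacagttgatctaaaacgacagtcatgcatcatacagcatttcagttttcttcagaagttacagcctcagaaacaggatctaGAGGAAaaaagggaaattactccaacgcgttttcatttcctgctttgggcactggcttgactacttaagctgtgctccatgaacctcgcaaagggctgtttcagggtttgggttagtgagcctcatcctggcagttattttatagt
Clec12a: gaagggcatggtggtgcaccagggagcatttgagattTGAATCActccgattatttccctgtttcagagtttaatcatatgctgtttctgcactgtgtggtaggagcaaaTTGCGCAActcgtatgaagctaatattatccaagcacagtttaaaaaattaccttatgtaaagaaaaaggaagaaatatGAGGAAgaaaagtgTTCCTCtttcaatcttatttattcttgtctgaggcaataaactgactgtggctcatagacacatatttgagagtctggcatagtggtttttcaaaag

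The Clec4e window held 2 matches to GAGGAA, at -123 and -56 relative to the start, and 1 to TTGCNNAA at -66. Clec4d held 3 matches to GAGGAA, at -240, 8 and 40, and Clec7a held 1, at -96. Clec12a, with the smallest fold change of the 8 in each comparison, held 2 matches to GAGGAA at -61 and -47, 1 to TTGCNNAA at -140 and 1 to TGANTCA at -213. GAGGAA occurs in 28.3% of all 27025 promoter windows of this length, TTGCNNAA in 10.8%, TGANTCA in 7.93% and the loose NF-kB pattern in 50.4%. None of the 4 windows shown held the loose NF-kB pattern. Of the windows searched but not shown, that of Clec4a1 held it at -75 and -74, and GAGGAA at -217 and -187. The Clec4a2 window held 0 matches to GAGGAA and 1 to TGANTCA, at 32. That of Clec4a3 held 0 matches to any of these patterns. A match describes the letters only.

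The 8 genes lie in 2 clusters on chromosome 6, 6.05 Mb apart. The first runs over 368.0 kb from Clec4a1 to Clec4e, and the second over 130.1 kb from Clec12a to Clec7a, with Olr1 beyond it. Other lectin genes of these clusters were listed, and 7 of 9 could be tested. With the diet 0 passed in limma, edgeR or DESeq2, and 0 had an unadjusted p under 0.05. Between MCD_MoKCs and MCD_EmKCs 2 were higher and 1 lower, and between MCD_MoKCs and Chow_EmKCs 2 were higher and 0 lower. The last counts were 2 and 1 without the 5 libraries numbered up to 24. Olr1, the receptor LOX-1 for oxidised LDL, averaged 16.8 ± 17.4 normalised reads in chow-fed EmKCs, 11.1 ± 15.6 in diet-fed EmKCs and 431 ± 159 in MoKCs, where libraries lay from 246 to 683. It was higher in MCD_MoKCs than in MCD_EmKCs by 6.31 (SE 0.92, limma adjusted p = 2.2e-05). Clec4b1 lies between Clec4a4 and Clec4a2 and was higher by 2.42 (SE 0.38, limma adjusted p = 5.24e-05), with means of 144 ± 56.6 in MCD_EmKCs and 764 ± 289 in MCD_MoKCs. Clec1b encodes CLEC2, on which the cells were sorted, and was lower (log2 fold change -0.47, SE 0.14, limma adjusted p = 0.0282), a call that edgeR did not make. Clec12b, beside Clec12a, averaged 0 to 1.08 normalised reads per group, and Clec9a 363 to 430.

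**Figure D5:**
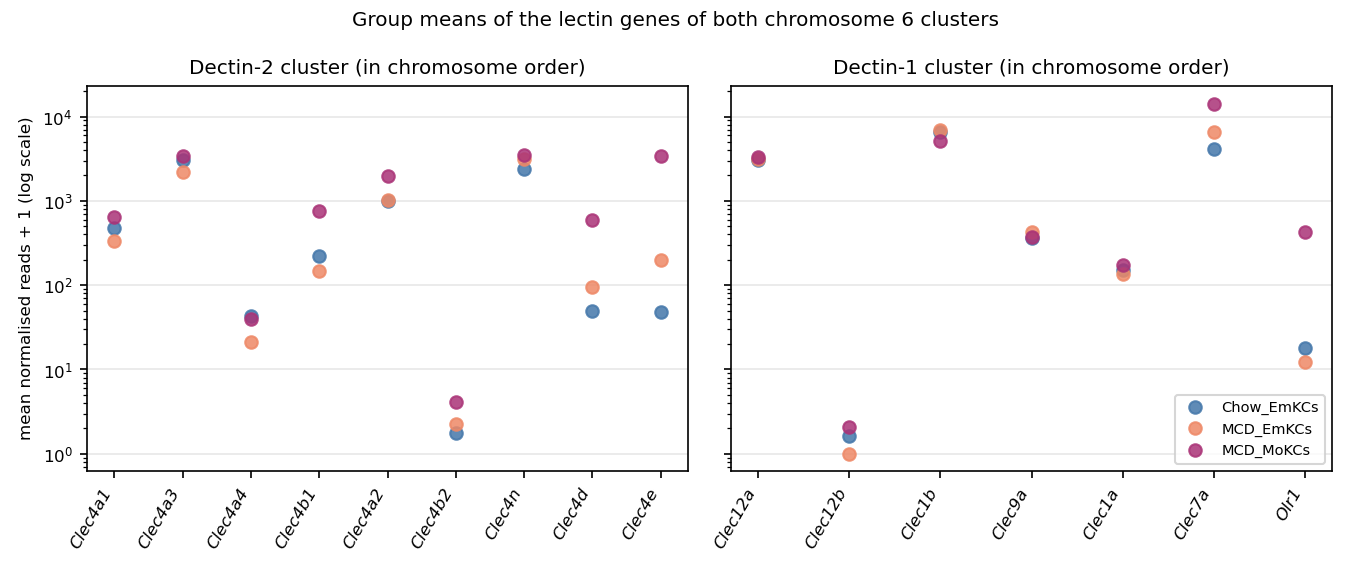
Mean normalised reads + 1 (vertical axis, log scale) of the lectin genes of both clusters in chromosome order, 1 point per group. Clec4d, Clec4e, Clec4b1, Clec7a and Olr1 have their MCD_MoKCs point well above the others, and Clec12a, between 3076 and 3288, does not.

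The signalling chain below the activating receptors was described from a list of 21 genes. With the diet 1 was higher and 0 lower, between MCD_MoKCs and MCD_EmKCs 2 were higher and 2 lower, and between MCD_MoKCs and Chow_EmKCs 3 were higher and 1 lower. The list's median log2 differences were 0.15, 0.15 and -0.09. Fcer1g, the shared adaptor chain, had 26353 ± 6694, 21870 ± 11301 and 20875 ± 4423 normalised reads in Chow_EmKCs, MCD_EmKCs and MCD_MoKCs, Syk 6967 ± 1646, 7681 ± 1469 and 8982 ± 805, and Card9 207 ± 113, 186 ± 66.6 and 270.2 ± 112. None of these 3 passed in any comparison. Malt1, the protease partner of CARD9, was higher in MCD_MoKCs (1775 ± 495) than in MCD_EmKCs (368 ± 294), by 2.58 on the log2 scale (SE 0.43, limma adjusted p = 0.000196). Vav3, an exchange factor, was higher with the diet by 1.35 (SE 0.29, limma adjusted p = 0.00473) and in MCD_MoKCs against MCD_EmKCs by 1.01 (SE 0.28, limma adjusted p = 0.0166). Without the 5 libraries numbered up to 24, limma called 0 of this list with the diet, and 1 higher and 1 lower between MCD_MoKCs and MCD_EmKCs. Vav1, also an exchange factor, was lower in MCD_MoKCs than in MCD_EmKCs (log2 fold change -0.63, SE 0.16, limma adjusted p = 0.0119). Against Chow_EmKCs, Prkcd, a kinase between Syk and CARD9, was higher in MCD_MoKCs by 0.48 (SE 0.13, limma adjusted p = 0.00784).

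A list of inhibitory receptors, phosphatases and ubiquitin ligases had 14 genes, of which 13 were matched and tested. It had 1 higher and 2 lower with the diet, 0 higher and 1 lower between MCD_MoKCs and MCD_EmKCs, and 2 higher and 4 lower between MCD_MoKCs and Chow_EmKCs, with median log2 differences of -0.17, -0.04 and -0.12. The diet counts were 2 higher and 1 lower without the 5 libraries numbered up to 24. Ptpn6, the phosphatase SHP-1, was lower in MCD_MoKCs (7729 ± 998) than in Chow_EmKCs (11780 ± 925), at -0.61 on the log2 scale (limma adjusted p = 0.000151), and did not pass in the other comparisons. Its MCD_EmKCs libraries (8035 to 10133) nevertheless all lay below those of Chow_EmKCs (10905 to 13051), a state found in 1.41% of genes tested. Siglece, an inhibitory sialic acid receptor, was lower in MCD_MoKCs than in MCD_EmKCs (log2 fold change -1.49, SE 0.16, limma adjusted p = 1.71e-07). Sirpa, the receptor for CD47, rose with the diet by 0.65 (SE 0.13, limma adjusted p = 0.00228). The inhibitory receptors Pirb and Pilra fell by 0.53 and 0.52 with the diet (limma adjusted p = 0.0181 and 0.0197). Cd200r1 was higher in MCD_MoKCs than in Chow_EmKCs by 1.20 (SE 0.33, limma adjusted p = 0.0101).

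Genes known to be induced through these receptors in myeloid cells, such as Tnf, Cxcl1 and Egr2, were listed as 19, and 18 were tested. With the diet 12 rose and 0 fell, between MCD_MoKCs and MCD_EmKCs 8 were higher and 0 lower, and between MCD_MoKCs and Chow_EmKCs 15 were higher and 0 lower. The medians were 1.34, 0.82 and 2.50. Many other receptors induce the same genes. Without the 5 libraries numbered up to 24 these counts of higher genes were 13, 7 and 15. Within the libraries numbered up to 33 they were 9, 4 and 14, and within those from 37 they were 6, 6 and 14. Egr2, an early transcription factor, went from 255 ± 125 in Chow_EmKCs to 1869 ± 573 in MCD_EmKCs (log2 fold change 2.98, SE 0.27, limma adjusted p = 3.47e-08). Csf3, the granulocyte growth factor, rose from 2.42 ± 3.31 to 65.1 ± 41.3 (4.57, SE 0.79, limma adjusted p = 0.000608). Egr3 rose from 2.84 ± 4.24 to 58.5 ± 53.5 (4.06, limma adjusted p = 0.00311). Il23a rose from 13.9 ± 16.7 to 93.9 ± 83.8 (2.88, limma adjusted p = 0.0339). For Egr3 and Il23a the groups overlapped. Between MCD_MoKCs and MCD_EmKCs the largest were Ptgs2, the inducible cyclooxygenase (4.14, SE 0.79, limma adjusted p = 0.000739), and the chemokines Ccl3 (1.58), Cxcl1 (1.56) and Ccl4 (1.43).

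Genes that respond quickly to cell isolation were read beside this list. Of 14 listed, 12 were matched and tested. With the diet 6 were higher and 0 lower, between MCD_MoKCs and MCD_EmKCs 2 and 2, and between MCD_MoKCs and Chow_EmKCs 5 and 0. Together they took 1.95 to 2.74% of reads in Chow_EmKCs, 2.81 to 3.53% in MCD_EmKCs and 2.30 to 3.30% in MCD_MoKCs, and none was at 0 in any group. Egr1 rose with the diet by 1.28 (SE 0.15), and Fos differed by 0.02 (SE 0.13, limma adjusted p = 0.959). Their part in the changes of the induced genes or of Clec4e was not tested.

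Of 6 genes for described self ligands, 0 passed with the diet in limma, edgeR or DESeq2 (2 higher and 1 lower at an unadjusted p under 0.05), and 2 were higher in MCD_MoKCs than in each embryo-derived group. Anxa1, an annexin bound by Dectin-1, averaged 1141 ± 723 normalised reads in MCD_MoKCs, against 29.1 ± 19.9 in MCD_EmKCs and 10.4 ± 9.44 in Chow_EmKCs. It was higher in MCD_MoKCs than in MCD_EmKCs by 5.44 (SE 0.77, limma adjusted p = 1.42e-05). Anxa5 was higher by 0.38 (SE 0.12, limma adjusted p = 0.0441), and without the 5 libraries numbered up to 24 the count against MCD_EmKCs was 1.

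Of 10 myeloid transcription factor genes, 0 passed with the diet in limma, edgeR or DESeq2 (1 higher and 1 lower at an unadjusted p under 0.05), and 1 was higher and 1 lower in each other comparison. Cebpb, which drives Clec4e in stimulated macrophages, had 153111 ± 66801, 421393 ± 409289 and 253120 ± 140662 normalised reads in the 3 groups and did not pass in any comparison. It reached 1055044 in MCD_EmKCs 2, or 4.78% of that library's reads, and 99673 in MCD_EmKCs 5. Irf5 was higher in MCD_MoKCs than in MCD_EmKCs by 0.45 (SE 0.12, limma adjusted p = 0.0121), and Cebpd was lower (log2 fold change -0.69, SE 0.17, limma adjusted p = 0.00887). Against Chow_EmKCs, Rela was higher by 0.50 (SE 0.16, limma adjusted p = 0.0246). Without the 5 libraries numbered up to 24, 0 of these genes passed in either comparison with MCD_MoKCs in limma.

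Other macrophage lectins outside the 2 clusters were listed as 14, and 11 were tested. With the diet 1 was higher and 1 lower, and in both comparisons with MCD_MoKCs 3 were higher and 6 lower. Their medians were -0.22, -0.82 and -0.73. Without the 5 libraries numbered up to 24, 1 was higher and 0 lower with the diet, and 2 were higher and 7 lower between MCD_MoKCs and MCD_EmKCs. Clec4f, a marker lectin of Kupffer cells, was lower in MCD_MoKCs (21839 ± 4644) than in MCD_EmKCs (157671 ± 4769), at -2.88 on the log2 scale (SE 0.12, limma adjusted p = 3.26e-15). Cd209f and Cd209b, relatives of DC-SIGN, were also lower (-3.92 and -3.51, limma adjusted p = 0.00051 and 0.0152). Clec5a, a receptor that signals through the adaptor DAP12, was higher in MCD_MoKCs by 2.69 (SE 0.73, limma adjusted p = 0.0169). The scavenger lectin Colec12 rose with the diet by 1.84 (SE 0.22, limma adjusted p = 2.63e-06) and was lower in MCD_MoKCs than in MCD_EmKCs (-2.40, limma adjusted p = 6.65e-09).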

How the data were processed

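RNA was sequenced from 19 libraries of sorted Kupffer cells. The authors deposited 1 table of normalised signal per gene. Within each library its values are whole multiples of 1 step (100.0% within 0.001 reads), so the deposited signal is reads divided by 1 factor per library. STAR, DESeq2 and mm10 are named, without versions, in the submitters' processing notes. The counting tool is not given in the sources used here. Of 33919 identifiers, 29062 matched a symbol. Positions come from GENCODE M21 on the same build.

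The 14875 genes that reached 10 normalised reads in 6 or more libraries were tested with limma 3.58.1 in R 4.3.3 on log2(value + 1), two-sided, with a mean-variance trend, robust variance estimates, all 19 libraries in 1 model, no covariate, and Benjamini-Hochberg adjustment over all genes tested. The added 1 shrinks differences of low genes on this scale. The fold change is a difference of mean log values, so it need not equal the log of the ratio of means. With the diet it was above that log for Clec4e and below it for Csf3. edgeR 4.0.16 and DESeq2 1.42.0 were run on reads recovered from the steps. The step of Chow_EmKCs 1 is so near 1 that an automatic check of the recovery could not be made for it, so edgeR was also run without that library. Reads carry no molecular identifiers.

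The receptor genes and the other lists were chosen with earlier results of these data known, and the list of isolation genes was added after the files were seen. Named by rule were all 8 receptor genes, up to 4 called genes per list with the largest fold change, Fcer1g, Syk, Card9, Ptpn6 and Cebpb, and the 3 genes most correlated with each receptor gene, predicted genes left out. The values of 1 gene named by this rule are not reported here. Tnf, Fos, Egr1, Cx3cr1, Cd93, Clec9a, Clec12b and the marker genes were named after their values were seen. Of the methods, only the limma test was tried on simulated data, for MCD_MoKCs against MCD_EmKCs.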

Additional observations from a re-analysis of the deposited data

How the results depend on the processing

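The fold changes and calls of the 8 receptor genes, the counts of calls in the pathway and lectin lists and the count of all genes called were recomputed under 31 or 32 alternatives, of which 3 (edgeR without Chow_EmKCs 1, and 2 sets of libraries left out) were chosen after seeing the data. The count of receptor genes that passed stayed within 1.5 times its main value in 87 of 95 alternatives, with 0 lower in each, and no call changed sign. With the diet the count of 2 became 1 after quantile normalisation, within library numbers up to 33 and within those from 37. Between MCD_MoKCs and MCD_EmKCs the count of 6 became 3 within either set of library numbers and 3 without the 5 libraries numbered up to 24. Between MCD_MoKCs and Chow_EmKCs the count of 5 became 3 within either set; these sets hold 2 to 5 libraries per group. Leaving out 1 library at a time gave 2 to 2, 4 to 6 and 5 to 5. edgeR gave 2, 5 and 5, and DESeq2 gave 2, 6 and 5. With a replicate block the counts were 2, 6 and 5, with 608, 1658 and 2474 genes called in all. Whether the replicate numbers pair the libraries is not given in the sources used here. Deviations from the group mean in same-numbered libraries had correlations of -0.07 to 0.08, with 0 pairs over 0.1. In 2, 2 and 3 of 6 pairs a library was nearest to its own number. These values cannot show that libraries were unpaired, and a pairing across other numbers was not tested. The call of Clec4a3 between MCD_MoKCs and MCD_EmKCs was lost in 17 of 32 alternatives, that of Clec4a1 in 10 and that of Clec4a2 in 3, and those of Clec4e, Clec4d and Clec7a in 0. Clec12a, not called in any, ranged from -0.20 to 0.15 there, and from -0.12 to 0.25 with the diet. The number of all genes called ranged from 179 to 904 with the diet (607 as reported), from 565 to 1846 between MCD_MoKCs and MCD_EmKCs (1568) and from 1257 to 2588 between MCD_MoKCs and Chow_EmKCs (2493), lowest within a set of library numbers, which holds fewer samples, and highest with DESeq2, for which the last equals quantile normalisation.

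The lowest values rest on few reads. Clec4e in Chow_EmKCs rests on as few as 12 reads in a library and Clec4d in MCD_EmKCs on 31. Among the receptor genes, Clec4e and Clec4d had the largest SE of the log2 fold change in every comparison. It was 0.42 to 0.44 for Clec4e and 0.36 to 0.38 for Clec4d. The part of depth in these errors was not tested. MCD_MoKCs libraries 1 to 3 had the fewest reads of their group and the highest ribosomal and mitochondrial shares. The diet group of embryo-derived cells has no library numbered up to 24, so for MCD_MoKCs against MCD_EmKCs the library number and the group cannot be told apart among those libraries. Marker and isolation lists, correlations, likeness ranks and levels per kb were not recomputed under these alternatives.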
